A study of Drosophila melanogaster with 4 samples.

Results

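Drosomycin (Drs), its 6 clustered paralogs Drsl1 to Drsl6 and metchnikowin (Mtk), genes for small secreted antifungal peptides, were followed in the heads of ageing flies that overexpressed a nuclear lamin. The members were the rows whose FlyBase gene identifiers carry these symbols in the annotation, 8 of the 17753 genes listed. All 8 had at least 1 read, and 4 of them (Drs, Drsl4, Drsl5 and Mtk) had enough reads to receive an adjusted p-value. Pooled heads of Drosophila melanogaster were collected at day 30, and poly-A RNA was sequenced from 4 samples, 2 per group. Flies of the lamin-B overexpression group had the genotype Hsp70-Gal4/+; +/UAS-LamB.GFP, in which a Gal4 driver under an Hsp70 promoter switches on a GFP-tagged lamin B. Flies of the control sibling group were +/+; +/UAS-LamB.GFP, so both groups carried the transgene and only the overexpression group carried the driver. No group carried the driver without the transgene, so an effect of the driver chromosome and an effect of lamin B cannot be told apart. Nothing in the labels says that samples of a group came from separate cultures, and the p-values measure the spread between these samples only, which could be technical.

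Drosomycin is a cysteine-stabilised peptide that acts against filamentous fungi, and metchnikowin is a proline-rich antifungal and antibacterial peptide. Both are classical outputs of the Toll pathway in the fat body, where a circulating protease cascade cleaves the ligand Spätzle, Toll is activated, the inhibitor Cactus is degraded, and the NF-κB factors Dif and Dorsal enter the nucleus. The Imd pathway, which ends in the NF-κB factor Relish, can also induce both genes, and it drives drosomycin in barrier epithelia.

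Values per library are whole reads recovered from the digits of the authors' deposited table and divided by size factors ("normalized reads"). The size factors are not printed there and were inferred from the printed means. The group of each library was inferred from the sign of the fold changes of genes with 1 read in all. The recovered libraries carry no replicate number and are named here by size factor, 1.15 and 1.10 for overexpression and 1.09 and 0.73 for control. Recovered reads summed to 25339931 and 24845333 with overexpression and to 25073450 and 16550964 in the controls, over genes that hold 67.4% of the mean normalized counts. Lam, the overexpressed gene, had 4414 and 4758 normalized reads against 2109 and 2130 in the controls. The opsin gene ninaE, which marks photoreceptors, had a mean normalized count of 1176378 in the authors' deposited table.

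Drsl5 and Drsl4 were the most abundant members in these heads, ahead of drosomycin itself, and the other 4 paralogs were nearly silent. The 7 drosomycin genes lie within 55594 bases of chromosome arm 3L (annotation of build BDGP6), and each has a single exon. Drsl2 (FBgn0052279, 3314349 to 3314681), Drsl3 (FBgn0052283, 3314996 to 3315355), Drsl4 (FBgn0052282, 3315620 to 3315942) and Drsl5 (FBgn0035434, 3316781 to 3317144) follow each other on the + strand within 2796 bases. Drsl1 (FBgn0052274, 3335579 to 3335788) and Drsl6 (FBgn0052268, 3336032 to 3336418) lie on the − strand. Drs (FBgn0283461, 3369556 to 3369942) stands apart on the + strand, beyond the spectrin gene kst. Mtk (FBgn0014865) is on 2R, 15408846 to 15409113, + strand, inside an intron of Stacl. The coding sequences of the drosomycin genes run from 69 to 72 codons, and that of Mtk has 52.

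**Figure D1:**
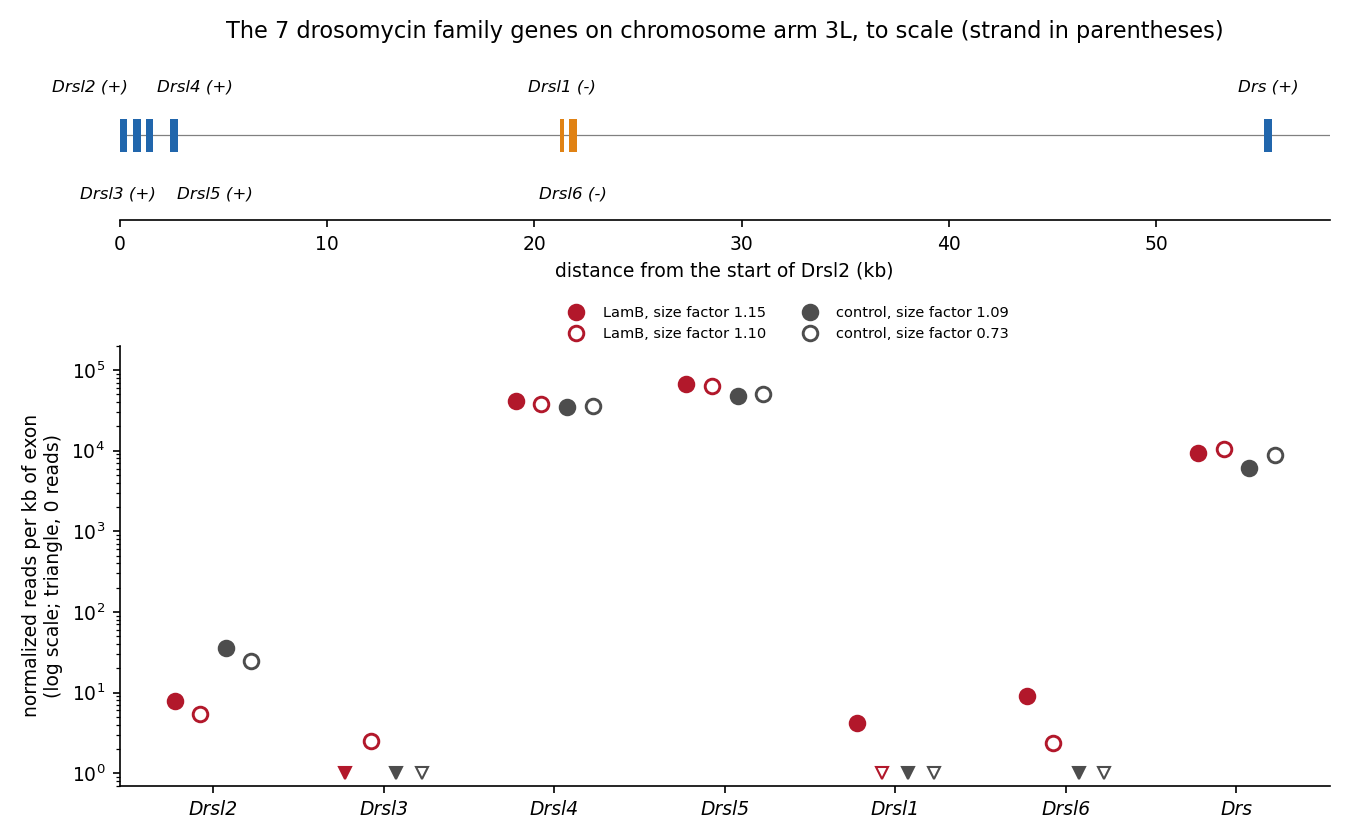
Positions of the 7 drosomycin family genes (top, distance in kb from the start of Drsl2, to scale) and their normalized reads per kb of exon in each library (bottom, log scale; LamB is the overexpression group, triangles mark libraries with 0 reads). Drsl4 and Drsl5 lie above Drs in every library, and their neighbours Drsl2 and Drsl3 lie far below Drs.

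Per kb of exon, the order of levels was Drsl5, Drsl4, Mtk, Drs and then the nearly silent paralogs. Drsl5 stood at 67576 and 63889 normalized reads per kb with overexpression and at 47614 and 50662 in the controls. Drsl4 stood at 41360 and 38126 per kb against 35054 and 35558, below Drsl5 in every library. Mtk ranged from 8029 to 12132 per kb and Drs from 6174 to 10552, so these neighbours in the order overlapped across libraries, although Mtk was the higher of the pair within each one. Drsl2 ranged from 5.44 to 35.8 per kb, and Drsl1, Drsl3 and Drsl6 did not exceed 9.03 per kb in any library. Similarity among the paralogs was not computed, and how the authors counted reads that match several genes is not given in the sources used here, so the split of reads among paralogs is uncertain to that extent.

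Drsl5 rose in the overexpression heads and was the only member called at an adjusted p-value under 0.05. It had 28169 and 25685 reads in the overexpression libraries against 18880 and 13452 in the controls. Normalized, these were 24598 and 23256 against 17332 and 18441, with group means of 23927 ± 949 and 17886 ± 784 (SD, n = 2 each). Both overexpression libraries lay above both controls, and the gap between the groups exceeded the distance between libraries of either group. The read ratio (reads summed per group and scaled by the summed size factors) was 1.35, with an exact binomial 95% interval of 1.33 to 1.37 that, like the others given, covers counting error only. The authors' deposited table lists a log2 fold change, shrunken towards 0, of 0.41 with SE 0.0591 and adjusted p = 9.06e-10. In whole heads, more cells of a type and more RNA per cell cannot be told apart. The reads per library of Drsl5 are the least certain of the members: 1 set of reads matched the printed digits, but when the fold change was displaced on purpose, 5 of 8 displaced values also found a match, against 1 of 8 for Drsl4 and 0 of 8 for Drs and for Mtk.

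Drsl4, the neighbour upstream of Drsl5, was higher by a smaller amount that missed the threshold. Its reads were 15299 and 13601 against 12334 and 8378, which normalized to 13359 and 12315 against 11322 and 11485. The groups did not overlap, with means of 12837 ± 739 and 11404 ± 115 (SD, n = 2 each), but the overexpression libraries differed from one another by more than the lower of them exceeded the higher control. The read ratio was 1.13 (exact binomial 95% interval 1.11 to 1.15). The log2 fold change that the authors' deposited table lists is 0.16, with SE 0.0626 and adjusted p = 0.0806.

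Drs, the founding gene of the family, was also higher without passing the test. It had 4108 and 4510 reads against 2603 and 2462, and normalized reads of 3587 and 4083 against 2390 and 3375. The groups did not overlap, yet the control libraries differed from each other by 41.2%, more than the lower overexpression library exceeded the higher control. Means were 3835 ± 351 and 2882 ± 697 (SD, n = 2 each), and the read ratio was 1.38 (exact binomial 95% interval 1.33 to 1.42). For Drs the authors' deposited table lists 0.32, with SE 0.132 and adjusted p = 0.109. The ratio of mean normalized reads was 1.14 without the control library of size factor 1.09 and 1.61 without the other control.

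Mtk did not pass the test, and its groups overlapped. Its reads were 3111 and 3591 against 2344 and 2159, and its normalized reads 2717 and 3251 against 2152 and 2960. The control library of size factor 0.73 lay above the overexpression library of size factor 1.15. Means were 2984 ± 378 and 2556 ± 571 (SD, n = 2 each), and the read ratio was 1.20 (exact binomial 95% interval 1.16 to 1.25). The log2 fold change of Mtk was 0.17 in the authors' deposited table, with SE 0.133 and adjusted p = 0.558. The ratio of mean normalized reads was 1.01 without the control library of size factor 1.09 and 1.39 without the other control. Stacl, whose intron holds Mtk, has a log2 fold change of -0.10 (adjusted p = 0.429) per the authors' deposited table.

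**Figure D2:**
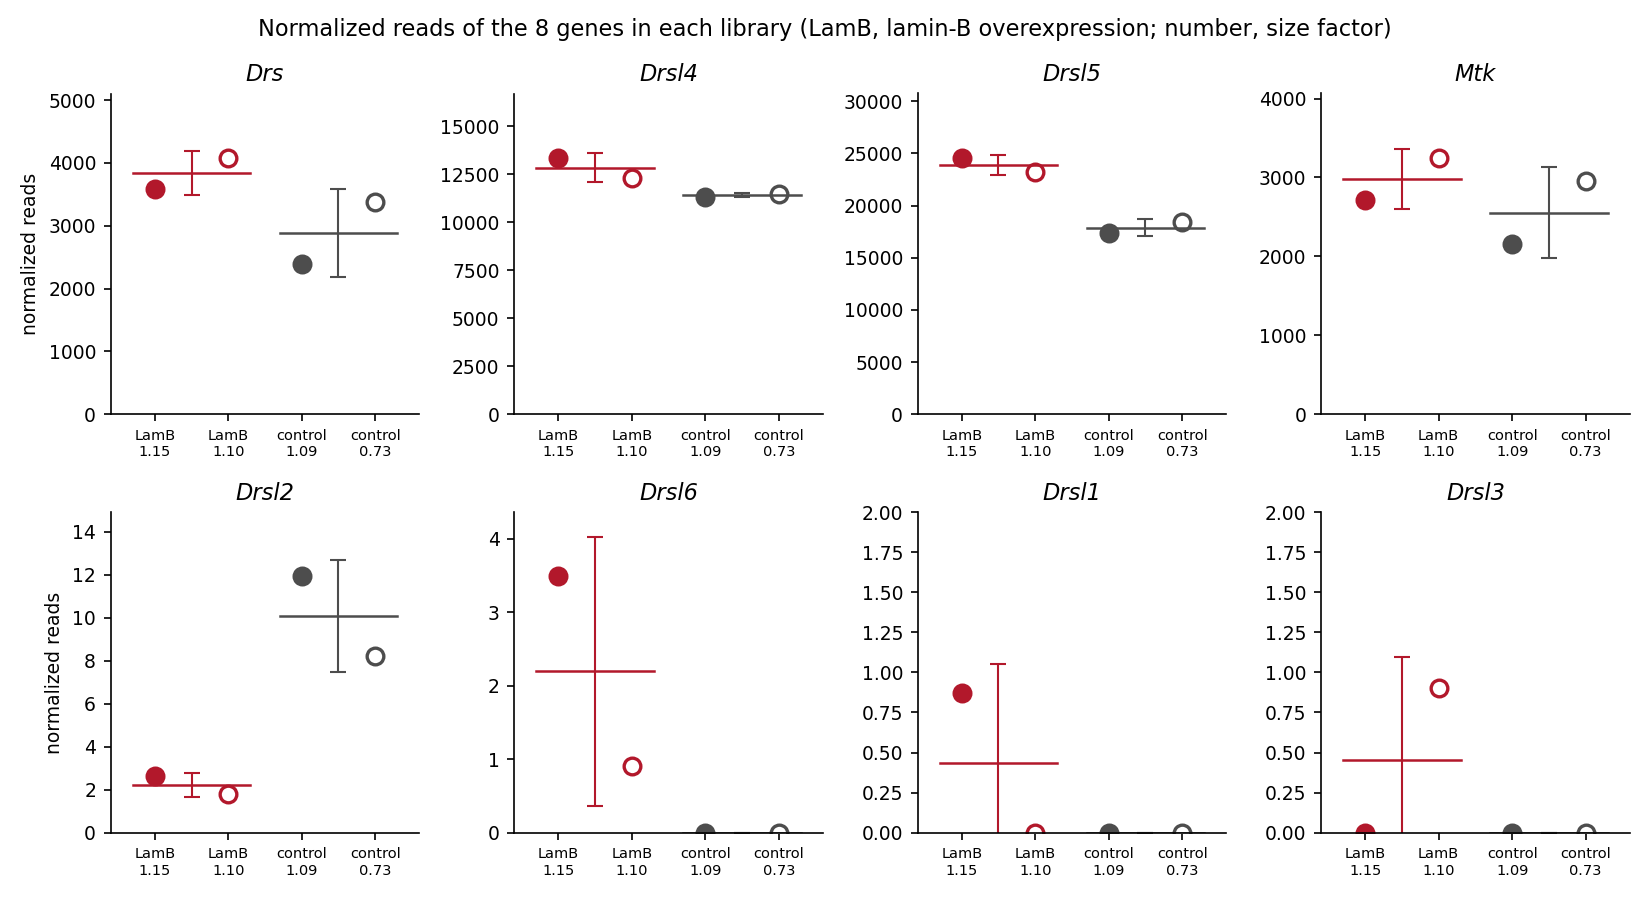
Normalized reads (y axes, linear from 0) of each of the 8 genes in each library (x axes; LamB is the overexpression group, the number is the size factor), with lines for group means and bars for ± SD (n = 2). The groups are apart for Drsl5, Drsl4, Drs, Drsl2 and Drsl6, and overlap for Mtk, Drsl1 and Drsl3. Drsl2 and Drsl6 rest on few reads. Of all tested genes with recovered reads, 31% lie above both controls in both overexpression libraries and 25.4% below.

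The nearly silent paralogs gave too few reads for an adjusted p-value. Drsl2 had 3 and 2 reads with overexpression against 13 and 6 in the controls. Its groups did not overlap and lay in the opposite order to those of Drsl4 and Drsl5, with a read ratio of 0.213 (exact binomial 95% interval 0.0621 to 0.589). Its unadjusted p-value in the authors' deposited table is 0.198, with a fold change shrunken to -0.09. Drsl6 had 4 and 1 reads against 0 and 0, and the exact binomial 95% interval of its read ratio began at 0.741. Drsl1 had 1 read, in the overexpression library of size factor 1.15, and Drsl3 had 1 read, in that of size factor 1.10. A difference in Drsl1, Drsl3 or Drsl6 was not detectable at this depth.

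Of the 4 members tested, 1 was called higher and 0 lower, where 8.74% of the 11757 tested genes were called in either direction, 5.66% higher and 3.07% lower. The median log2 fold change was 0.25 over these 4 members and 0.01 over all tested genes in the authors' deposited table. Both overexpression libraries lay above both controls for 3 of the 4 members and below them for 0. Over the tested genes with recovered reads these shares were 31% and 25.4%, and 23.9% of the genes with a mean of at least 1000 lay above. Limma, fitted to log2(normalized reads + 1) over 11251 genes, called 11.1% of them and the same single member, with an adjusted p of 0.00208 for Drsl5, 0.0764 for Drsl4, 0.0791 for Drs and 0.319 for Mtk. Without either overexpression library limma no longer called Drsl5, with an adjusted p of 0.249 and 0.260 at log2 differences of 0.38 and 0.46.

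Ratios between members within a library do not depend on the size factors. They were computed for chosen pairs only, and the other pairs of tested members were not compared. Between the 2 abundant paralogs the ratio was higher in both overexpression libraries than in both controls. Reads of Drsl5 were 1.84 and 1.89 times those of Drsl4 with overexpression and 1.53 and 1.61 times in the controls. Drsl5 made up 59.2% and 58.6% of the family's normalized reads with overexpression against 55.8% and 55.4%, and Drsl4 made up 32.2% and 31.1% against 36.5% and 34.5%. Neither share overlapped between the groups. Drs reads were 1.32 and 1.26 times those of Mtk against 1.11 and 1.14 times, again without overlap. The ratio of Drsl5 to Drs, at 6.86 and 5.70 against 7.25 and 5.46, did overlap. By a two-sided exact permutation test, each ratio whose groups were apart had p = 0.333. That is the smallest that 2 against 2 libraries allow, so this test cannot show that a ratio changed.

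**Figure D3:**
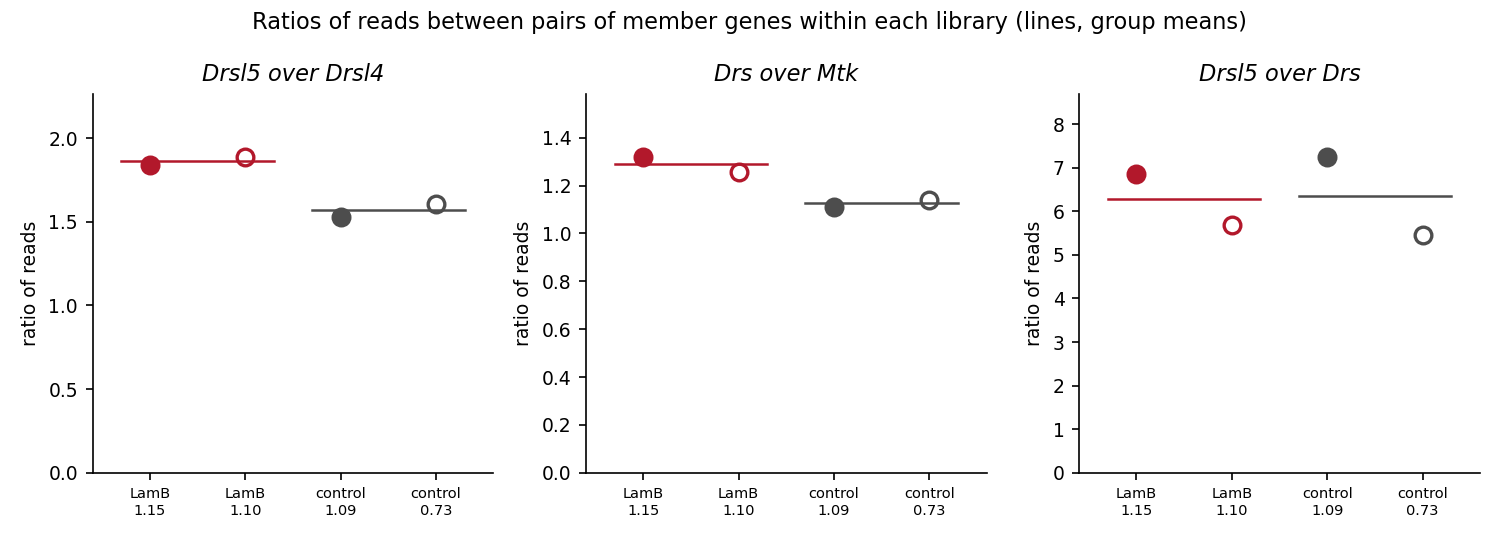
Ratio of reads (y axes, linear from 0) between pairs of member genes in each library (x axes; LamB is the overexpression group, the number is the size factor; lines are group means, n = 2). Drsl5 over Drsl4 and Drs over Mtk are higher in both overexpression libraries than in both controls, and Drsl5 over Drs overlaps.

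Across libraries, Drs and Mtk varied more within a group than Drsl4 and Drsl5 did. For both Drs and Mtk the overexpression library of size factor 1.10 was the highest and the control of size factor 1.09 the lowest, while the middle pair of libraries stood in opposite orders. The control of size factor 0.73 was above the other control by 41.2% for Drs and 37.5% for Mtk, against 1.44% for Drsl4 and 6.40% for Drsl5. The overexpression library of size factor 1.10 was above the other by 13.8% for Drs and 19.7% for Mtk, whereas Drsl4 and Drsl5 were higher in the library of size factor 1.15.

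Attacin, cecropin, diptericin and drosocin genes were often lowest in the same control library. The defensin gene Def, which is outside this set, was called lower. It was highest in the control of size factor 1.09, with 709 normalized reads. Of 11 tested attacin, cecropin, diptericin and drosocin genes, 8 were lowest in the control of size factor 1.09, as were all 4 tested members. Over all tested genes with recovered reads, 29.2% were lowest there, a share that covers genes of either direction. Drs, Drsl4 and Drsl5 lay above both controls and so could only be lowest in a control. For Drsl4 the controls differed by only 1.44%. All 11 had a positive fold change and 1 was called. That gene, the diptericin gene DptB, had 4024 and 4862 normalized reads against 2528 and 3523, with 0.43 (SE 0.132) and adjusted p = 0.0174 per the authors' deposited table. DptA, the other diptericin gene, named after its values were seen, had 5411 and 5731 against 1942 and 4326. The groups of both genes were apart, and the controls differed widely. The part of this library in the values of Drs and Mtk was not tested beyond the ratios without it given above.

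**Figure D4:**
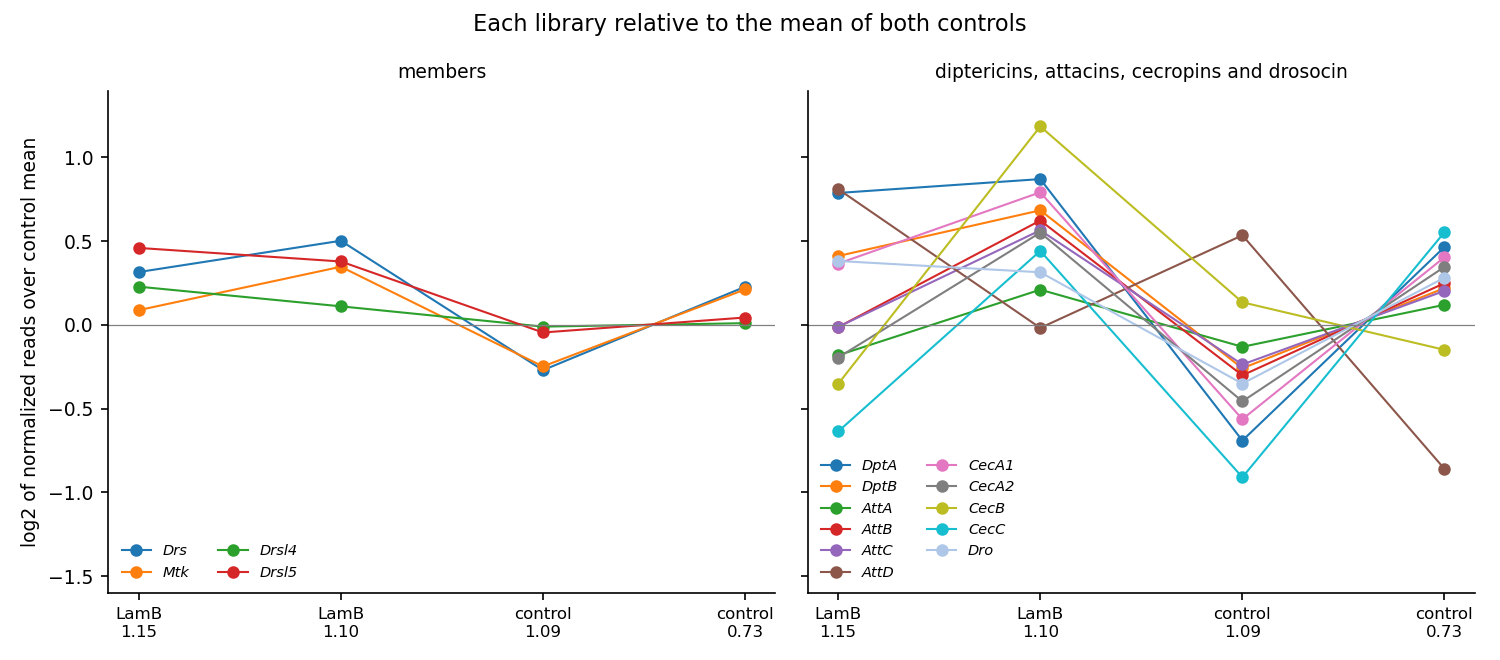
Log2 of normalized reads in each library over the mean of both controls (y axis) for 4 members (left) and for the 11 tested attacin, cecropin, diptericin and drosocin genes (right); the lines only join points of 1 gene. Drs, Mtk and the genes on the right other than AttD and CecB are lower in the control of size factor 1.09 than in the other control, and Drsl4 and Drsl5 are nearly level between the controls.

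Of 14 tested bomanin and daisho genes, short peptides induced through Toll, 4 were called higher and 0 lower, with a median log2 fold change of 0.14. BomBc1 rose by 0.36, BomS2 by 0.27, BomS1 by 0.23 and BomBc2 by 0.21, all per the authors' deposited table. BomBc1 had 11086 and 11732 normalized reads against 8953 and 8653. Over all 28 tested immune peptide genes that are not members, 6 were called higher and 1 lower. The shares over all tested genes were 5.66% and 3.07%. The gene called lower was Def, the defensin gene, with 162 and 101 normalized reads against 709 and 662. Its log2 fold change of -1.33 in the authors' deposited table had SE 0.159 and adjusted p = 8.4e-15, opposite in sign to that of Drsl5. The sixth gene called higher was Anp, the andropin gene of the male tract, named after its values were seen, with 33.2 and 88.7 normalized reads against 0 and 0.

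Among Toll pathway genes, 4 of the 13 tested genes of recognition and of the extracellular protease cascade were called higher and 0 lower, and their median log2 fold change was 0.20. Both overexpression libraries lay above both controls for 9 of the 13. Of all tested genes 5.66% were called higher, and 31% of those with recovered reads lay above both controls. PGRP-SA, a circulating receptor for bacterial peptidoglycan, had 1483 and 1316 normalized reads against 644 and 659. It rose by 0.92 (SE 0.118), with adjusted p = 8.18e-13 per the authors' deposited table. PGRP-SD, a further recognition protein, had 2049 and 2018 against 1638 and 1637, and rose by 0.29 with adjusted p = 0.0193 per the authors' deposited table.

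The other genes called in the cascade encode serpins, inhibitors of proteases. Spn27A, which restrains melanisation and Toll activation, had 4939 and 4820 normalized reads against 3437 and 3716. It rose by 0.42 (SE 0.0753), with adjusted p = 1.55e-06 per the authors' deposited table. The serpin gene nec, a brake on Toll activation, had 14000 and 14368 against 10952 and 11656, and rose by 0.32 (SE 0.0582) with adjusted p = 3.82e-06 per the authors' deposited table. The ligand gene spz stood at 0.01 (SE 0.0912), with adjusted p = 0.975 per the authors' deposited table, and its groups overlapped.

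Of 11 tested genes of the receptor and the intracellular part of the pathway, 0 were called by the authors' Wald test, and limma with all libraries also called 0; the median log2 fold change was 0.01. Pli and Gprk2, named after their values were seen, had an unadjusted p under 0.05, and for both of these genes both overexpression libraries lay below both controls. They stood at -0.23 and -0.14 per the authors' deposited table. Limma called Pli lower once the control of size factor 0.73 was left out (adjusted p = 0.0333). The receptor gene Tl had 3585 and 3508 normalized reads against 3485 and 3541, with overlap. The inhibitor gene cact, itself a target of the pathway, had 5332 and 5277 against 4934 and 5048, without overlap, and 0.08 (SE 0.0628) with adjusted p = 0.538 per the authors' deposited table. The factor genes Dif and dl stood at 0.06 (SE 0.0652) and 0.05 (SE 0.0818) per the authors' deposited table, and neither was called.

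In the Imd list, 1 of 18 tested genes was called higher and 0 lower, near the 5.66% of all tested genes called higher. It was Rel, the NF-κB factor of the pathway, with 5903 and 6220 normalized reads against 5179 and 4997, and 0.24 (SE 0.0673) with adjusted p = 0.00759 per the authors' deposited table. Among 14 tested genes of other regulators linked to these peptide genes in flies, 1 was called higher, again beside 5.66% of all tested genes. It was cad, the homeobox gene caudal, which regulates antimicrobial peptide genes in epithelia. Its normalized reads were 56.8 and 54.3 with overexpression and 0.918 and 0 in the controls, with 0.43 and adjusted p = 0.00268 per the authors' deposited table. Some gut and male tract markers were at 0 in both controls and present in both overexpression libraries. With overexpression the gut markers Mal-A7 and Jon65Aiii had 301 and 634 and 134 and 324 normalized reads. The male tract marker Sfp87B had 486 and 730. These markers differed between the overexpression libraries. Values of cad were 56.8 and 54.3 there and, like those of the markers, at or near 0 in the controls (0.918 and 0). Gut markers were not all absent from the controls: Mal-A1 had 370 and 300 there, and Amy-p, called lower, had 12264 and 11724. The part of gut and male tract RNA in the values of cad was not tested.

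**Figure D5:**
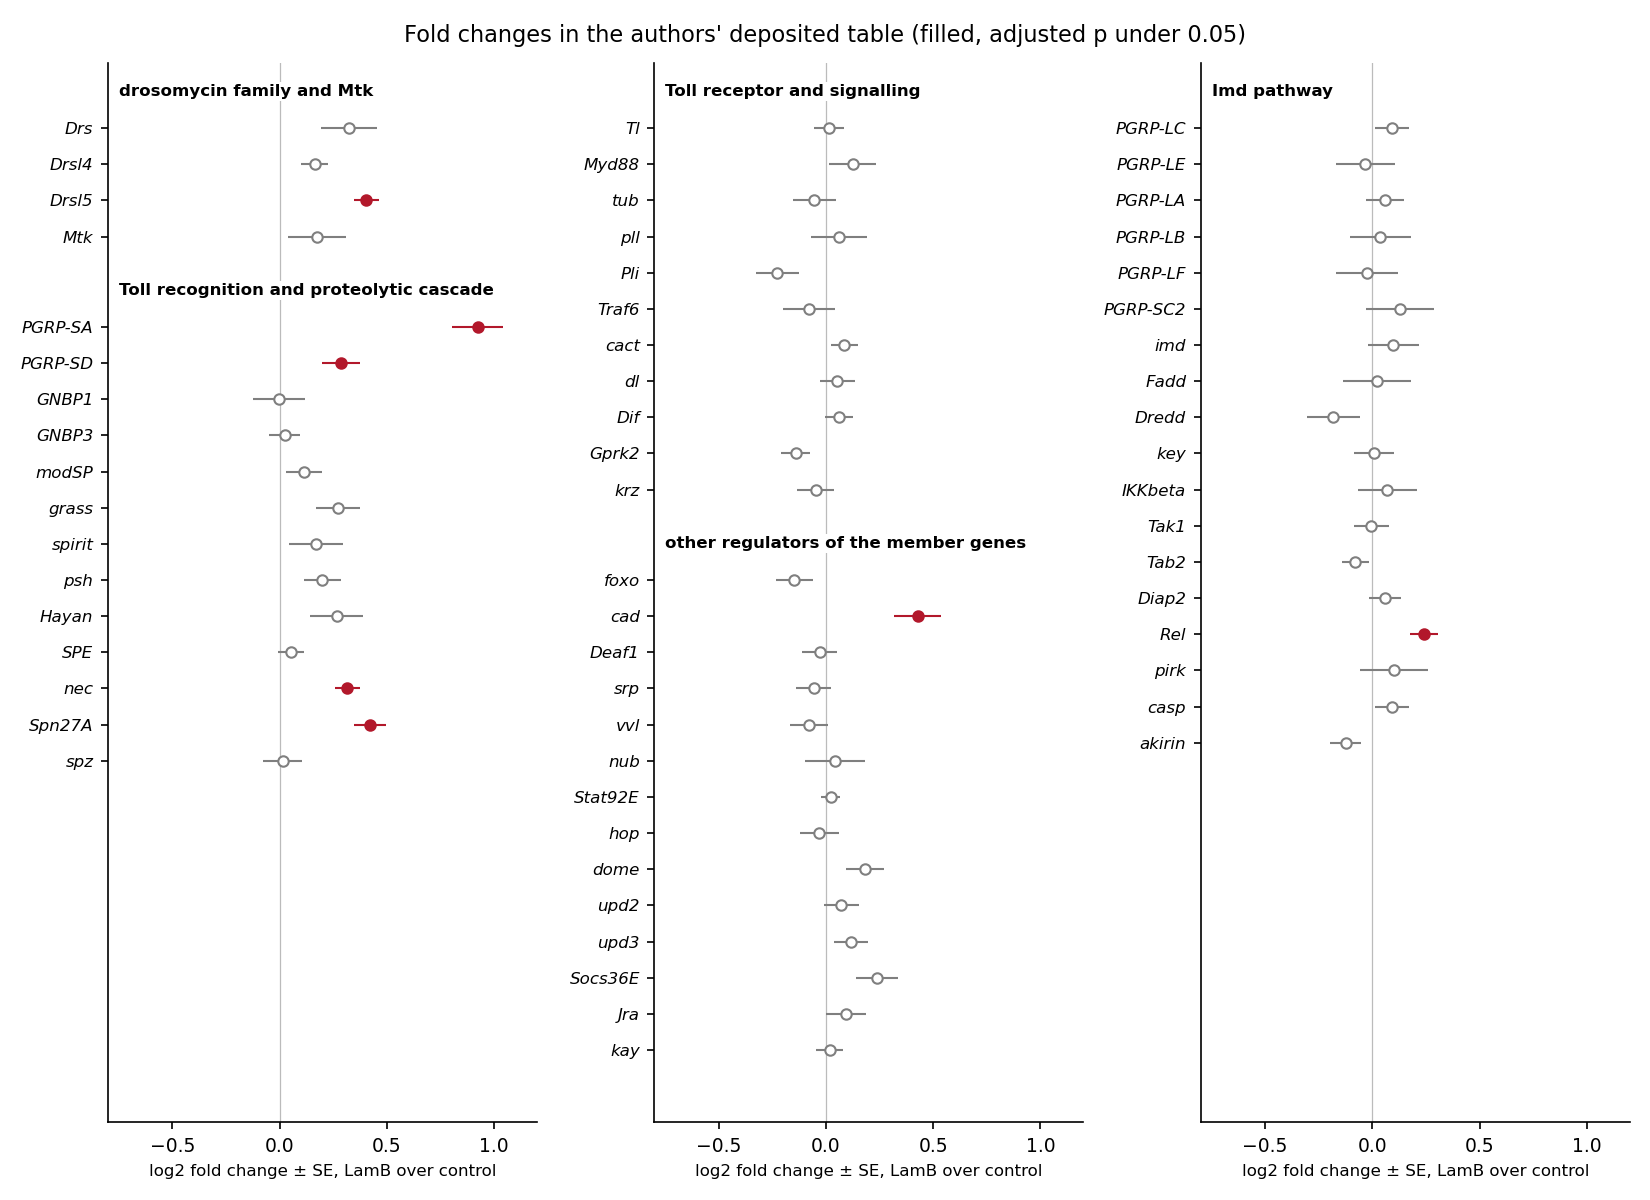
Log2 fold changes with ± SE from the authors' deposited table (x axes, overexpression over control) for the tested members and the tested genes of the Toll, Imd and other regulator lists; filled points have an adjusted p-value under 0.05. Drsl5, PGRP-SA, PGRP-SD, nec, Spn27A, Rel and cad are called, each of them higher.

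Transcripts of other tissues differed between the groups. Of 7 male reproductive tract markers, 7 were called higher, and the 6 with recovered reads summed to 1649 and 3029 normalized reads against 5.51 and 12.3, with EbpII, Acp26Aa, Sfp87B and ProtB at 0 in both controls. Of 8 gut markers, 4 were called higher and 1, the amylase gene Amy-p, lower. Amy-p held most of their sums of 12259 and 15044 against 12638 and 12032, and the other 7, each above both controls in both overexpression libraries, summed to 1858 and 4473 against 374 and 308. Among them Mal-A7, Jon65Aiii and Jon25Bi were at 0 in both controls. The overexpression library of size factor 1.10 was the highest for both sums. The part of these tissues in the members' values was not tested.

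Fat body, the main source of circulating Drs and Mtk, had 5 of 8 markers called higher and 2 lower, and the 5 with recovered reads summed to 51778 and 49932 normalized reads against 45098 and 46117. The lipid droplet gene Lsd-1 rose by 0.43, the clotting gene fon by 0.47 and the fatty acid synthase gene FASN1 by 0.31. The other markers called higher, apolpp and Tsf1, rose by 0.14 each. The storage protein genes Lsp2 and Lsp1beta stood at -0.84 each, all per the authors' deposited table. Of 9 hemocyte markers, 0 were called higher and 2 lower (PPO1 and lz), with sums of 45476 and 45745 against 45738 and 43141. Of 6 head and eye markers 0 were called higher and 3 lower (ninaE, Rh4 and elav). Of 3 yolk protein genes 0 were called by the Wald test, with 1 at an unadjusted p under 0.05. For all 3 yolk genes both overexpression libraries lay below both controls, as for 25.4% of tested genes with recovered reads. Yp1 and Yp2 had few reads. The part of these cell types in the members' values was not tested.

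Likeness to other genes was measured as the Euclidean distance of log2(normalized reads + 1) over the 4 libraries, which reads level and pattern together. The nearest gene to Drs was DptB (distance 0.318), before cbt and rush. The nearest to Mtk were Myo31DF (0.306), Rpn3 and Mdr49. Drsl5 was nearest to the fat body marker Lsd-1 (0.134), before mfas and CG9691, and Drsl4 to Mlc2 (0.0901), Cnx99A and crc. These distances share 4 libraries and their size factors and are a description.

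Of the genes that border the cluster, ZnT63C, the zinc transporter gene before Drsl2, was called lower. It had 3142 and 3018 normalized reads against 3731 and 3725, and -0.26 (SE 0.0731) with adjusted p = 0.00783 per the authors' deposited table. PIG-C, which follows Drsl5, had 99.5 and 105 against 93.6 and 101, with overlap. CG14969 before Drsl1, kst before Drs and Ythdc1 after Drs had fold changes of -0.03, 0.02 and -0.29 per the authors' deposited table, and none of these was called.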

How the data were processed

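Poly-A RNA of pooled heads was sequenced as paired ends. STAR 2.5, HTSeq, DESeq2 1.22.1 and DESeq with build BDGP6 are named, without roles, per the submitters' processing notes. The authors' deposited table holds 1 comparison: a mean normalized count per gene (signal), a shrunken log2 fold change with its error, the Wald score, and p-values with adjusted p-values. A second deposited table names no groups and was not used. Members and gene lists were chosen with earlier results of these data known. Calls are the authors' adjusted p under 0.05.

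Reads per library were recovered by searching whole numbers that, divided by the size factors, return the printed mean, fold change and error (tolerance 1.2e-09, or 8e-10 from a mean of 5000). Up to a mean of 60 they were solved from the printed mean alone, without the fold change or error. This holds for Drsl1, Drsl2, Drsl3 and Drsl6, and for cad and Anp. Of 15163 genes searched, up to a mean of 30000, 15074 had 1 solution. Above a mean of 400 the search kept to libraries near their group mean, within 50% for members. There, 1 solution means 1 within the range searched, and wider spreads within a group were not sought. In 300 genes with a mean up to 3000 and a displaced fold change, 1 found a match. This is no error rate for higher means: from 12000 to 30000, 34 of 374 genes had several solutions and were left out. The recovery and the limma fit were tested on simulated data. Limma 3.58.1 (R 4.3.3) used log2(normalized reads + 1) at a mean of at least 10, chosen after seeing the data; intervals used scipy 1.17.1 in Python 3.11.15. The planned edgeR fit was not made, since the table holds no counts. In the immune and regulator lists the called genes (at most 6 per list, by adjusted p), the core Toll genes and Rel are named. Of the marker lists only some called genes are named. The genes spheroide and BaraA2 were not matched.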

Additional observations from a re-analysis of the deposited data

How the results depend on the processing

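No paired analysis was possible because the recovered libraries carry no replicate number. The fold changes of Drs, Drsl2, Drsl4, Drsl5 and Mtk kept their sign under the alternatives run, and none were run for Drsl1, Drsl3 and Drsl6. At an adjusted p under 0.1, 2 members were called (Drsl4 and Drsl5), and at 0.01, without the filter, or from a mean of 10, Drsl5 alone. Limma on recovered reads, added after seeing the data, called 0 to 3 members with 1 library left out, where the lone library is assumed to vary like the other group: 0 without either overexpression library, 1 without the control of size factor 1.09, and 3 (Drs, Drsl5 and Mtk) without the control of size factor 0.73. Of all genes limma called 11.1% with every library, 2.73% and 2.44% without an overexpression library, 3.27% without the control of size factor 1.09 and 8.04% without the other. Toll pathway genes called numbered 4, with 3 to 5 at other thresholds, 6 by limma, and 0 to 5 by limma with 1 library left out: 0 without either overexpression library, 2 without the control of size factor 1.09 and 5 without the other (4 higher, and Pli lower). With no normalization, log2 ratios were 0.77 for Drs, 0.48 for Drsl4, 0.74 for Drsl5, 0.57 for Mtk and -1.93 for Drsl2, since the control of size factor 0.73 is shallower. Drsl2 was -2.19 without shrinkage and -2.15 scaled by summed reads. With 1 library left out, log2 ratios ran from 0.18 to 0.68 for Drs, 0.11 to 0.23 for Drsl4, 0.38 to 0.47 for Drsl5, 0.012 to 0.47 for Mtk and -2.48 to -1.89 for Drsl2. Depth limits Drsl1, Drsl2, Drsl3 and Drsl6, and 2 libraries per group limit all tests. The edgeR and DESeq2 fits and the replicate block were not run.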
